A study of Homo sapiens with 8 samples.

Results

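The tumour suppressor p53 is a transcription factor, and in cells given Nutlin-3 some of its ChIP-seq peaks (chromatin immunoprecipitation and sequencing) stood close together along the chromosome. A run was defined as at least 5 successive peaks of the Nutlin-3 list with gaps of at most 20 kb, measured from the end of a peak to the start of the next. This gave 290 runs, which held 1905 of the 18159 Nutlin-3 peaks. The runs were thus selected on the Nutlin-3 peak positions themselves, so their number, length and spacing are descriptions, and only the lists of the other conditions are independent of the choice. The cells were U2OS, a human osteosarcoma line with endogenous wild-type p53, and p53 was precipitated with the antibody DO-1. They received 10 µM Nutlin-3, 0.6 µg/ml doxorubicin or 0.1% DMSO, or no treatment, with 24 h listed for each. Per the labels, DMSO is the control of Nutlin-3 and untreated cells are that of doxorubicin. Each condition had 1 ChIP library, so no difference between conditions could be tested and none has a p-value. An input library, DNA taken before precipitation, was the control of each.

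p53 binds DNA as a tetramer, at sites made of a pair of like half-sites, and turns on genes of cell cycle arrest, apoptosis, DNA repair and its own feedback. In unstressed cells the ubiquitin ligase MDM2 binds p53 and sends it to the proteasome. Nutlin-3 occupies the p53 pocket of MDM2 and so stabilises p53 without breaking DNA, whereas doxorubicin poisons topoisomerase II and activates p53 through DNA damage. A gene can carry several p53 sites, in its promoter, its introns or more distant enhancers.

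The lists hold a chromosome, a start and an end for each peak, with no height, score or read count. They comprised 18159 Nutlin-3, 3087 doxorubicin, 2793 DMSO and 496 untreated peaks, and the reads behind each list are unknown. Positions are those of build hg18 as deposited. Gene names beside a run come from general knowledge of where genes lie in that build, written down after the positions of the runs had been seen, and not from an annotation. A gene counts as at a run when its remembered place is in the run or within 10 kb of it, so a place that is off by more would be missed or wrongly counted. A name says that a gene lies there, not that p53 controls it.

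Of 23 established p53 targets looked for, 7 lie at a run. Among genes of cell cycle arrest these were 3 of 4, namely CDKN1A, SFN and GADD45A. Among genes of apoptosis they were 3 of 7, namely BBC3, TNFRSF10B and AEN. Among genes of DNA repair RRM2B was the 1 of 4, while 0 of 4 feedback genes, MDM2 among them, and 0 of 4 metabolism and autophagy genes had a run. The list of targets was chosen with results of these data known. The share of all genes that lie at a run was not computed, for want of an hg18 annotation, so these counts have no background and show nothing particular to p53 targets. The promoters of 4 of the 7 are shown because these genes mark where runs coincide with textbook p53 targets, and GADD45A, TNFRSF10B and RRM2B are named only. Each line is the 250 bases before the gene's start, 5′ to 3′ on the gene's strand, from RefSeq on GRCh38.p14. Capitals mark a match to the p53 half-site consensus, which reads alike on both strands.

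CDKN1A: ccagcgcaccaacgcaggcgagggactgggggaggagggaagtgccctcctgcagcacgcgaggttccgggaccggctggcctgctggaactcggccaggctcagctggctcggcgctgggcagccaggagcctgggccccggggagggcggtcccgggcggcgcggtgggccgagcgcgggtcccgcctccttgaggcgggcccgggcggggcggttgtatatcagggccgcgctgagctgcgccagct

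SFN: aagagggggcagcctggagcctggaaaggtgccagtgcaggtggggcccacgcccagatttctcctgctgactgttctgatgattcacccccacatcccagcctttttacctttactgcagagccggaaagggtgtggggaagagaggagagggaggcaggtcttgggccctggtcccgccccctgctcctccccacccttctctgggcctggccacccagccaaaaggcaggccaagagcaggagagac

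BBC3: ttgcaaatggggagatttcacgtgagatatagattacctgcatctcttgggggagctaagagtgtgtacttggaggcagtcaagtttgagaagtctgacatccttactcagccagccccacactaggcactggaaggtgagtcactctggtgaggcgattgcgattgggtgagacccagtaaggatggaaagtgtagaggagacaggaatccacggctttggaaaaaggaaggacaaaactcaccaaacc

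AEN: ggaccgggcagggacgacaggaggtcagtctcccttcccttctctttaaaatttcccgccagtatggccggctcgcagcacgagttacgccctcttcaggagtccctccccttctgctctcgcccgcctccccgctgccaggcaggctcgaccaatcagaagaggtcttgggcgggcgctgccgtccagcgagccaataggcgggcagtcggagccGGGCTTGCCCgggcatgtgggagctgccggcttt

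In GRCh38.p14 these windows are chr6:36678464-36678713 (plus strand), chr1:26862899-26863148 (plus), chr19:47232668-47232917 (minus) and chr15:88621090-88621339 (plus), in the order shown. The AEN window held 1 match, which begins 34 bases before the start, and the other windows held 0. Of 35116 RefSeq windows of this length, 5.57% held a match. The peaks are on another build and were not placed on these windows, so a match is a description of the letters alone.

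The runs were short blocks of narrow peaks with much open sequence between them. A run held a median of 6 peaks (lowest 5, highest 18) and spanned a median of 22.4 kb (lowest 1.46 kb, highest 75.14 kb). Runs of 5 or 6 peaks numbered 183 of 290 (63.1%), and 21 runs had 10 or more. The spans added up to 7.35 Mb, of which the peaks themselves covered 184 kb (2.50%). Only 19 runs were at most 5 kb long, and 22 exceeded 50 kb. At the lower limit of the definition, 119 runs had exactly 5 peaks, while 281 groups had 4 and were left out. At the limit of spacing, the widest gap inside a run was 20000 bp and the narrowest gap beside a run was 20060 bp. The 579 gaps that flanked a run had a median of 77.1 kb, and 41 of them were at most 25 kb.

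Inside a run the peaks fell into tight clusters with wider steps between them. The 1615 gaps had a median of 2.04 kb, with 25% at or below 0.36 kb and 25% at or above 7 kb. Gaps of 140 to 500 bp numbered 491 and shorter ones 6. In all, 30.8% of the gaps were at most 500 bp. Groups of 2 to 4 peaks, which are not runs, had nearly the same spacing, with a median of 2.14 kb and 31.1% of 4483 gaps at most 500 bp. Over the whole list the median distance from a peak to the next was 57.1 kb.

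**Figure D1:**
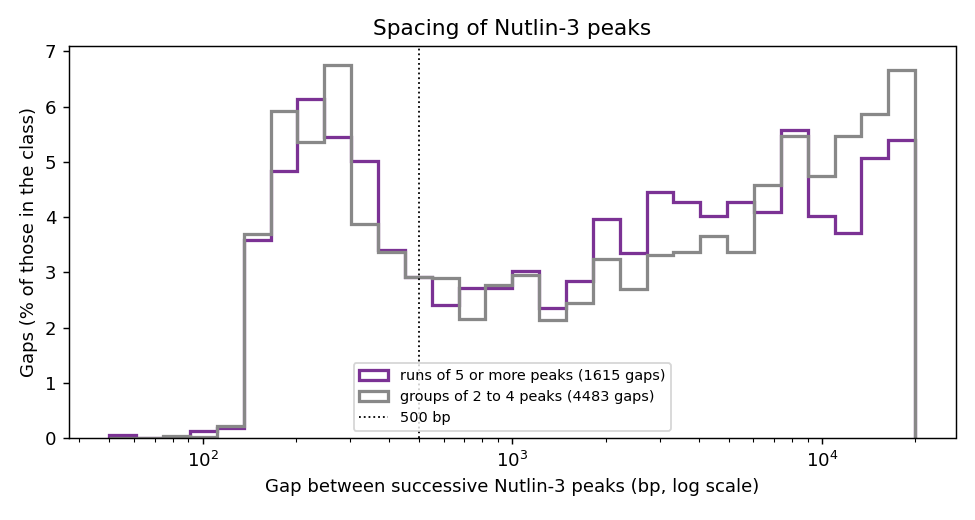
Gaps between successive Nutlin-3 peaks, in bp on a log scale, as a percentage of the gaps in each class. Runs of 5 or more peaks (purple, 1615 gaps) and groups of 2 to 4 peaks (grey, 4483 gaps) both show a mode below the dotted line at 500 bp and a broad shoulder of several kb, with few gaps under 140 bp.

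Tight clusters were common to most runs. Of the 290 runs, 235 had at least 1 pair of peaks within 500 bp, 55 had none, and in 12 each peak lay that near to another. Peaks within 500 bp of another made up 43.7% of the peaks in runs (833 of 1905) and 16.0% of those outside (2602 of 16254). The definition sets much of this difference, since 8589 of the peaks outside have no neighbour within 20 kb. In groups of 2 to 4 peaks the share was 33.9% (2602 of 7665). Here too the definition enters, since more of the peaks in a run have a neighbour on both sides. Counted by gaps, the shares at most 500 bp were 30.8% in runs and 31.1% in these groups. When peaks at most 500 bp apart were first joined into a single site, 157 runs of 5 or more sites were left, with a median span of 31.9 kb.

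Runs were found on each of the 24 chromosomes that carried Nutlin-3 peaks, but unevenly. Chromosome 1 had the most, with 39 runs, followed by chromosome 2 with 25 and chromosome 8 with 23. As a share of the chromosome's own Nutlin-3 peaks, chromosome 14 had 20.1% in runs, the highest share apart from chromosome Y (135 of 670, exact 95% binomial interval 17.2 to 23.4). Chromosome 22 followed with 19.1% (81 of 424, 15.5 to 23.2) and chromosome 17 with 17.1% (129 of 755, 14.5 to 19.96). Low shares were seen on chromosome 16, with 4.16% (22 of 529, 2.62 to 6.23), chromosome 13, with 4.34% (15 of 346, 2.45 to 7.05), and chromosome 11, with 5.20% (45 of 866, 3.82 to 6.89). The whole list had 10.5% in runs. These shares come from the Nutlin-3 positions that define the runs, and peaks enter a run at least 5 at a time. They are descriptions, and the intervals do not test a ranking of chromosomes. Chromosome Y had 7 Nutlin-3 peaks, of which 5 formed a run. Chromosome names are those of the reference build, and whether the cells carry each of them, chromosome Y included, was not tested. Intervals here and below are Clopper-Pearson, cover counting error only and treat peaks as independent, which neighbours in a run are not. Whether intervals overlap is a description and not a test of a difference.

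**Figure D2:**
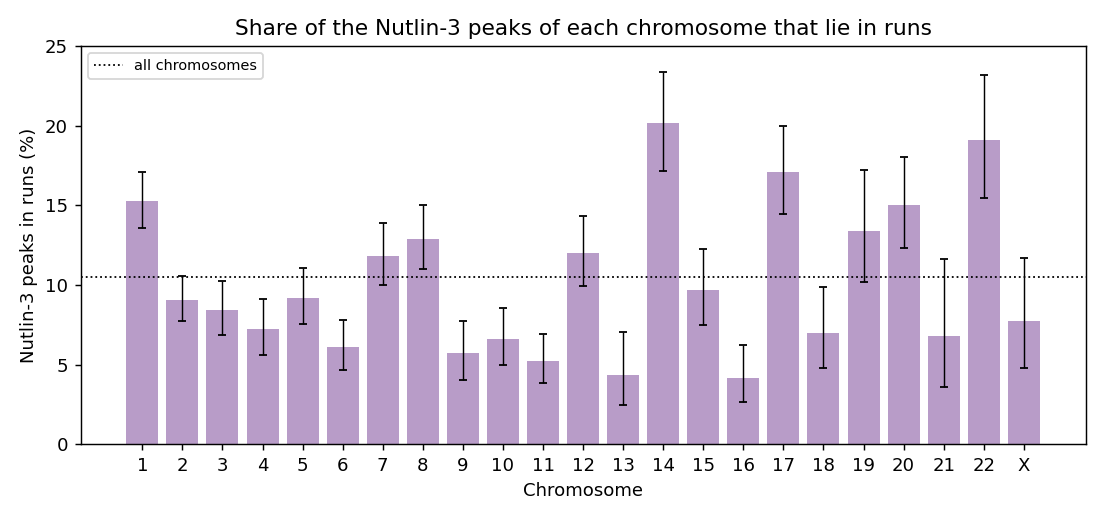
Share of each chromosome's Nutlin-3 peaks that lie in runs, in percent, with exact 95% binomial intervals as bars. The bars do not test differences between chromosomes. The dotted line is the share over all chromosomes, 10.5%. Of the chromosomes drawn, 14 and 22 stand highest, with 20.1% and 19.1%. Chromosome Y, with 7 peaks, is left out.

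Runs could also lie close to each other. Of 266 pairs of successive runs on a chromosome, 17 were at most 100 kb apart, and the median distance was 3.98 Mb.

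Most runs also held a peak from cells given doxorubicin or the solvent alone. A doxorubicin peak lay in the span of 180 of the 290 runs (62.1%, 56.2 to 67.7) and a DMSO peak in that of 186 (64.1%, 58.3 to 69.7). Over all 12061 groups of Nutlin-3 peaks, single peaks included, the shares were 16.0% for doxorubicin and 15.5% for DMSO. Of these groups 8589 were single peaks, whose span is only their own width. A run has at least 5 peaks and a longer span in which a peak of another list can fall, which raises its share by definition. Untreated cells had a peak in 20 runs (6.90%, 4.26 to 10.5), against 0.539% of all groups. Both doxorubicin and DMSO were present in 150 runs, doxorubicin without DMSO in 30, DMSO without doxorubicin in 36 and neither in 74 (25.5%). Doxorubicin was found in 80.6% of the runs that held DMSO and in 28.8% of the 104 that did not. Of the 74, 67 held no untreated peak either and so had Nutlin-3 peaks alone.

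**Figure D3:**
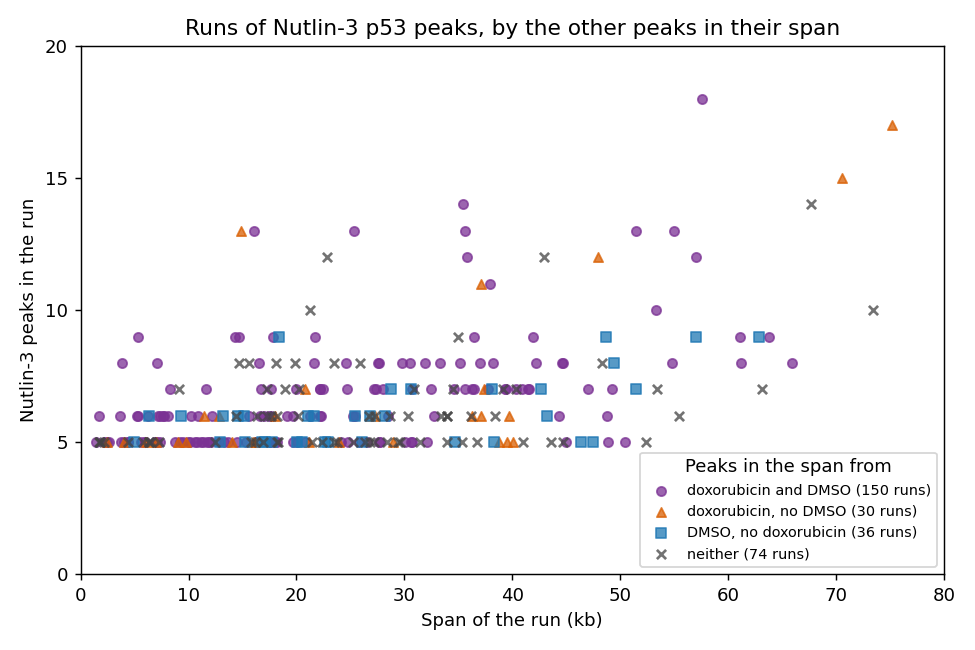
Nutlin-3 peaks per run (vertical axis) against the span of the run in kb (horizontal axis), with 1 point for each of the 290 runs. Symbols show whether the span held peaks from doxorubicin and DMSO (150 runs), doxorubicin without DMSO (30), DMSO without doxorubicin (36) or neither (74). The fullest run, with 18 peaks, held peaks from both.

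Where a run held peaks from another list they were few. Doxorubicin had 1 peak in 119 runs, 2 in 46 and 3 or more in 15. DMSO had 1 peak in 92 runs, 2 in 52 and 3 or more in 42. In no run was every Nutlin-3 peak overlapped by doxorubicin, by DMSO or by untreated peaks. The runs with neither doxorubicin nor DMSO had a median span of 24.5 kb and a median gap of 2.84 kb, and those with DMSO had 21.9 kb and 1.76 kb. By number of peaks, doxorubicin was present in 57.9% (50.4 to 65.2) of 183 runs with 5 or 6, 67.4% (56.5 to 77.2) of 86 runs with 7 to 9 and 76.2% (52.8 to 91.8) of 21 runs with 10 or more. For DMSO the shares in the same order were 59.6% (52.1 to 66.7), 76.7% (66.4 to 85.2) and 52.4% (29.8 to 74.3). Untreated peaks lay in 9 of the 183, 9 of the 86 and 2 of the 21. Runs of at least 6 peaks had a median span of 27.5 kb against 22.4 kb for all runs. A longer span has more room for a peak of another list. Counted by Nutlin-3 peaks, doxorubicin overlapped 12.9%, 11.9% and 11.9% in the same order of run size.

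Seen from the other lists, 288 doxorubicin peaks lay in the spans, or 9.33% of that list (8.33 to 10.4). DMSO had 350 (12.5%, 11.3 to 13.8) and untreated cells 30 (6.05%, 4.12 to 8.52). Of the doxorubicin peaks in the spans, 232 (80.6%) overlapped a Nutlin-3 peak, against 63.5% of the whole doxorubicin list. Of the DMSO peaks 284 did (81.1%, against 70.4% of the whole list), and of the untreated peaks 6 did (20%, against 6.45%). The spans were chosen for dense Nutlin-3 peaks, whereas a whole list also covers the rest of the genome. The definition thus raises the shares in the spans, and how much of each difference it sets was not tested.

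The fullest run lay on chromosome 22 from 28922211 to 28979751, at LIF, a cytokine of the interleukin-6 family. It held 18 Nutlin-3, 3 doxorubicin, 2 DMSO and 0 untreated peaks in 57.5 kb. Its widest peak, of 720 bp, opened the run and overlapped a doxorubicin peak of 160 bp. A 40 bp Nutlin-3 peak from 28971871 to 28971911 had the same bounds in DMSO and overlapped doxorubicin. In the runs named here and below, peak bounds of every list fall on a shared 20 bp grid. Equal bounds of narrow peaks are therefore likelier than with free positions. Doxorubicin and DMSO each overlapped 2 of the 18.

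CDKN1A, which encodes the cyclin-dependent kinase inhibitor p21, lies at a run on chromosome 6 from 36742731 to 36758751. Within 16.0 kb it held 13 Nutlin-3, 5 doxorubicin, 9 DMSO and 0 untreated peaks. No run had more DMSO peaks, and DMSO overlapped 8 of its 13 Nutlin-3 peaks and doxorubicin 4. Apart from 3 peaks at the left end, the peaks lay in the right part of the span, where the widest Nutlin-3 peak measured 620 bp (36753651 to 36754271) and the second 440 bp (36755931 to 36756371). DMSO had a peak of 180 bp inside the first and of 240 bp inside the second, and doxorubicin had none in either.

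APBB2, an adaptor of the amyloid precursor protein, lies at a run on chromosome 4 from 40821871 to 40857471. It held 13 Nutlin-3, 2 doxorubicin, 5 DMSO and 0 untreated peaks. A DMSO peak of 600 bp, from 40842051 to 40842651, covered 2 Nutlin-3 peaks in whole or in part, of 160 and 60 bp, so a wider peak in 1 list could stand against several in another.

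Another 4 of the fullest 10 runs held 0 to 4 peaks of each other list. BCL10, an adaptor in NF-κB signalling, lies at a run on chromosome 1 from 85514691 to 85582331. That run held 14 Nutlin-3 peaks in 67.6 kb and 0 peaks from doxorubicin, DMSO or untreated cells. A run on chromosome 14 from 61060451 to 61130991 held 15 Nutlin-3, 2 doxorubicin, 0 DMSO and 0 untreated peaks. A run on chromosome 17 from 67895471 to 67930871 held 14 Nutlin-3, 1 doxorubicin, 1 DMSO and 0 untreated peaks. The last of the fullest 10, on chromosome 1 from 207604811 to 207656251, held 13 Nutlin-3, 3 doxorubicin, 4 DMSO and 0 untreated peaks. No gene is named for these 3.

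**Figure D4:**
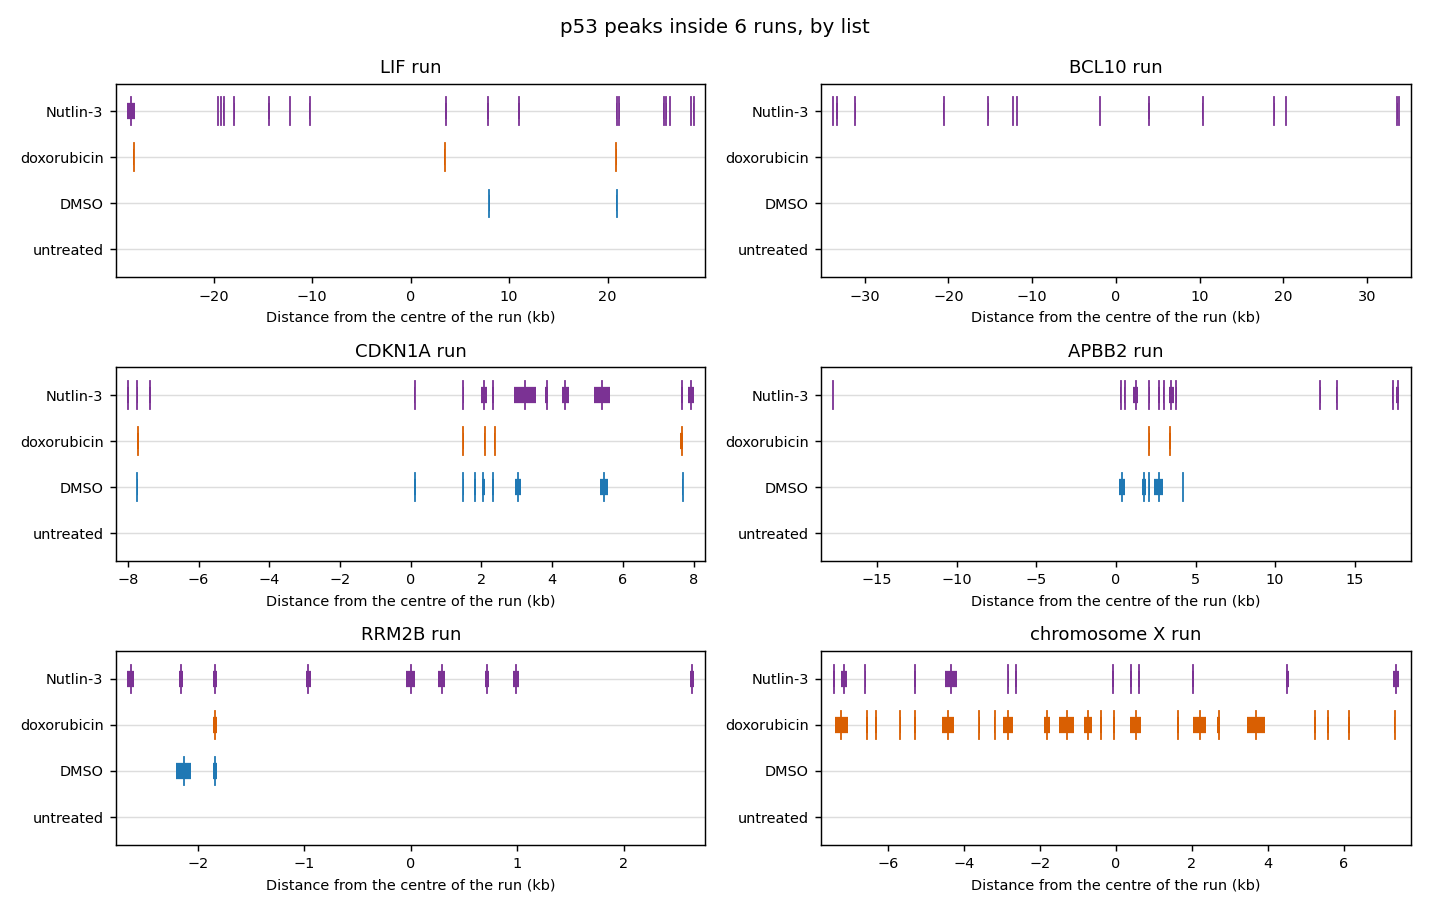
Peaks of the 4 lists inside 6 runs, by distance from the centre of the run in kb. Bars have the width of the peak and thin ticks mark its centre. The CDKN1A run holds 13 Nutlin-3, 5 doxorubicin, 9 DMSO and 0 untreated peaks. In the chromosome X run the 23 doxorubicin peaks outnumber the 13 of Nutlin-3, and DMSO and untreated cells have none.

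Another run among the fullest 10 held more doxorubicin than Nutlin-3 peaks. On chromosome X from 30719631 to 30734531 it held 13 Nutlin-3, 23 doxorubicin, 0 DMSO and 0 untreated peaks in 14.9 kb. Doxorubicin overlapped 9 of the 13, and its peaks there were up to 480 bp wide, while those of Nutlin-3 reached 300 bp. Nutlin-3 gaps in it ranged from 160 to 2740 bp. A second run with more doxorubicin than Nutlin-3 peaks lay on chromosome Y from 11923251 to 11939191, with 5 Nutlin-3, 11 doxorubicin, 0 DMSO and 6 untreated peaks. It had more untreated peaks than any other run, and doxorubicin and untreated peaks in it reached 1540 and 1320 bp against 120 bp for Nutlin-3. These were the 2 runs in which doxorubicin peaks were at least as many as those of Nutlin-3. For DMSO there was 1 such run, described with GDF15 below.

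The other targets in runs had few peaks from the other lists. GADD45A, a stress-induced gene of growth arrest, lies at a run on chromosome 1 from 67920951 to 67928031, with 8 Nutlin-3, 1 doxorubicin, 1 DMSO and 0 untreated peaks. The Nutlin-3 peak from 67925031 to 67925071 was overlapped by both other lists. RRM2B, a subunit of ribonucleotide reductase that supplies nucleotides for repair, lies at a compact run on chromosome 8 from 103317431 to 103322751, with 9 Nutlin-3, 1 doxorubicin, 2 DMSO and 0 untreated peaks in 5.32 kb. There the 40 bp peak from 103318231 to 103318271 had the same bounds in Nutlin-3, doxorubicin and DMSO.

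BBC3, which encodes the BH3-only protein PUMA, lies at a run on chromosome 19 from 52422891 to 52439431, with 8 Nutlin-3, 2 doxorubicin, 2 DMSO and 0 untreated peaks. TNFRSF10B, a death receptor for the ligand TRAIL, lies at a run on chromosome 8 from 22981411 to 22988311, with 5 Nutlin-3, 1 doxorubicin, 2 DMSO and 0 untreated peaks. AEN, an exonuclease linked to apoptosis, lies at a run on chromosome 15 from 86965531 to 86983111, with the same numbers in each list. SFN, which encodes 14-3-3 sigma, lies at a run on chromosome 1 from 27060251 to 27071671, with 6 Nutlin-3, 1 doxorubicin, 0 DMSO and 0 untreated peaks. All 7 of these runs thus held a doxorubicin peak and 6 of them a DMSO peak, against 180 and 186 of the 290 runs. The targets were chosen with results of these data known, so these counts are a description and show nothing particular to them.

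LIF, APBB2 and BCL10 above, and the 4 genes that follow, were picked only after their runs were seen. ZMAT3, an RNA-binding zinc finger gene, lies at a run on chromosome 3 from 180269871 to 180272011. Its 5 Nutlin-3 peaks filled 34.6% of 2.14 kb, and the peak from 180270651 to 180270691 had the same bounds in doxorubicin and DMSO. GDF15, a secreted stress cytokine, lies at a run on chromosome 19 from 18336791 to 18358011. That run held 6 Nutlin-3, 3 doxorubicin, 6 DMSO and 0 untreated peaks, and DMSO overlapped 4 of its 6. BHLHE40, a transcriptional repressor, lies at a run on chromosome 3 from 4995471 to 5043451, with 12 Nutlin-3, 1 doxorubicin, 0 DMSO and 0 untreated peaks. CCN1, a secreted matrix protein, lies at a run on chromosome 1 from 85765611 to 85822671, with 9 Nutlin-3, 0 doxorubicin, 1 DMSO and 0 untreated peaks, and the DMSO peak overlapped none of the 9.

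No gene is named for the densest runs. The run with the highest share of its span under peaks, 40.7% of 1.72 kb, was on chromosome 2 from 170786111 to 170787831. It held 6 Nutlin-3 peaks with gaps of 140 to 240 bp, 2 doxorubicin and 4 DMSO peaks, and DMSO overlapped 5 of the 6. The smallest median gap, 210 bp, was in a run on chromosome 14 from 45324411 to 45332711, where 7 Nutlin-3 peaks formed clusters of 3 and 4 with 6.10 kb between them. Each cluster held 1 doxorubicin and 1 DMSO peak. Both DMSO peaks there, of 120 and 200 bp, had the same bounds as a Nutlin-3 peak.

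Peak by peak, doxorubicin overlapped 236 of the 1905 Nutlin-3 peaks in runs (12.4%, 10.9 to 14.0), 10.6% (10.2 to 11.1) of the 16254 outside, and 10.8% of the whole Nutlin-3 list. DMSO overlapped 290 in runs (15.2%, 13.6 to 16.9), 10.4% (9.94 to 10.9) outside, and 10.9% of the whole list. For both lists the share was higher in runs than outside, and neither difference was tested. Untreated peaks overlapped 6 in runs (0.315%, 0.116 to 0.684), 0.172% (0.114 to 0.249) outside, and 0.187% of the whole list. No other list overlapped 1528 of the 1905 (80.2%).

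The share overlapped by DMSO was 8.30% (7.73 to 8.90) for single peaks, 11.9% (10.9 to 12.9) in groups of 2, 13.7% (12.3 to 15.2) in groups of 3 and 14.5% (12.5 to 16.7) in groups of 4. In runs of 5 or 6 it was 16.0% (13.8 to 18.5), in runs of 7 to 9 15.8% (13.1 to 18.8) and in runs of 10 or more 10.8% (7.37 to 15.2). The interval of single peaks lies below that of groups of 2, and from 2 peaks upward the intervals of neighbouring sizes overlap. No difference between sizes was tested. The doxorubicin share was 9.48% (8.87 to 10.1) for single peaks, highest in groups of 3, at 13.2% (11.8 to 14.6), and 11.9% (8.31 to 16.4) in runs of 10 or more.

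Peaks were next divided by whether another Nutlin-3 peak lay within 500 bp, a distance chosen after seeing the data. Doxorubicin overlapped 19.1% (16.5 to 21.9) of the close and 7.18% (5.71 to 8.90) of the other peaks in runs, against 19.9% (18.4 to 21.5) and 8.89% (8.41 to 9.37) outside. DMSO overlapped 23.8% (20.9 to 26.8) of the close and 8.58% (6.97 to 10.4) of the other peaks in runs, against 22.7% (21.1 to 24.3) and 8.07% (7.62 to 8.54) outside. Within each class of distance the intervals in and outside runs overlap, for both lists, which does not show that the shares are equal. With peaks up to 500 bp apart joined, doxorubicin overlapped 11.98% (10.01 to 14.2) of 977 sites in runs and 12.2% (11.7 to 12.7) of 15293 outside. DMSO then overlapped 12.7% (10.7 to 14.9) in runs and 11.7% (11.2 to 12.2) outside, and these intervals overlap too. Among the joined sites in runs, DMSO overlapped 36.9% (29.4 to 44.9) of the 160 made of 2 or more peaks and 7.96% (6.19 to 10.0) of the 817 made of 1. The joined sites of several peaks are also longer, with a median of 470 bp against 60 bp.

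**Figure D5:**
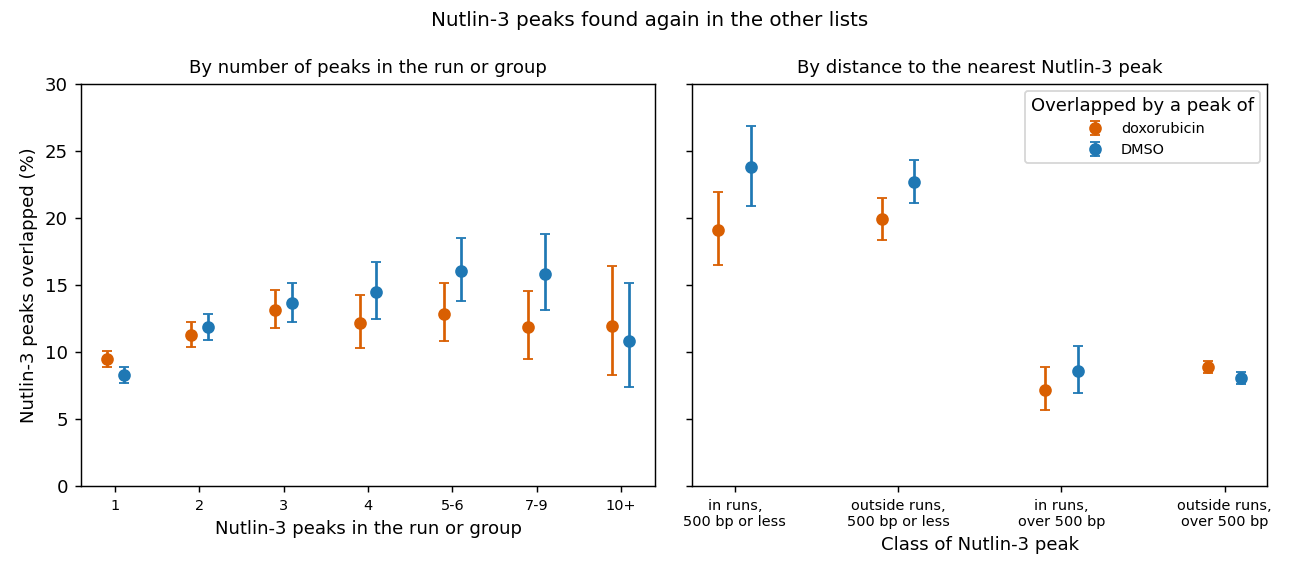
Nutlin-3 peaks overlapped by a doxorubicin (orange) or DMSO (blue) peak by at least 1 bp, in percent, with exact 95% binomial intervals. Left, by the number of Nutlin-3 peaks in the run or group. Right, by whether another Nutlin-3 peak lies within 500 bp, in and outside runs. Peaks within 500 bp of another stand at 19.1% to 23.8% and the others at 7.18% to 8.89%.

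Position and width inside a run were compared with the DMSO list. DMSO overlapped 14.2% (10.7 to 18.4) of the 338 widest peaks, ties included, and 15.4% (13.7 to 17.3) of the other 1567. It overlapped 12.6% (10.0 to 15.6) of the 580 first and last peaks and 16.4% (14.4 to 18.5) of the 1325 inner ones. Neither comparison was tested. By width, DMSO overlapped 23.4% (20.2 to 26.7) of the 672 peaks of 40 bp in runs and 16.4% (15.5 to 17.4) of the 5610 outside. At 60 bp the shares were 8.26% (5.91 to 11.2) of 460 in runs and 5.37% (4.72 to 6.09) outside, and at 80 to 100 bp 7.33% (4.33 to 11.5) of 232 in runs and 6.22% (5.25 to 7.31) outside. At 120 to 280 bp they were 13.9% (10.9 to 17.4) of 466 in runs and 8.89% (7.996 to 9.85) outside, and at 300 bp or more 17.3% (9.57 to 27.8) of 75 in runs and 17.6% (14.0 to 21.7) outside. The share in runs was the higher in each class up to 280 bp and the lower at 300 bp or more. None of these differences was tested. Mean width was 96.4 bp in runs and 87.8 bp outside, with a median of 60 bp in both.

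Nutlin-3 peaks without a DMSO counterpart lay some kb from those that had one. In 169 runs at least 1 peak was overlapped by DMSO, and in 96 of these it was exactly 1. The other 828 peaks of the 169 runs had a median distance of 5.21 kb to the nearest overlapped peak, and 247 of them (29.8%) were within 1 kb. The definition of a run bounds such distances. They were not compared with distances between other peaks of a run, so they show nothing particular to peaks shared with DMSO.

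By the same definition the doxorubicin list had 34 runs, the DMSO list 4 and the untreated list 15. All 4 DMSO runs met a Nutlin-3 run, among them those at CDKN1A, APBB2 and GDF15. Of the 34 doxorubicin runs 4 met one, at CDKN1A, on chromosomes X and Y as described, and on chromosome 4 from 78472991 to 78484611. Of the 15 untreated runs 2 did, on chromosome Y and on chromosome 8 from 29947171 to 29968291. Lists of such unequal length have unequal chances to form runs. Without the 5 Nutlin-3 runs that met a doxorubicin or untreated run, 243 doxorubicin peaks (7.87% of that list) and 20 untreated peaks were left in the spans, and the doxorubicin share of peaks in runs was 11.5%.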

How the data were processed

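Each of 4 conditions had 1 p53 ChIP library and 1 input, 8 samples in all. The submitters' processing notes name CASAVA, Bowtie 0.12.2 and build hg18, with no role. The authors deposited 1 peak list per ChIP library, whose values are peak starts and ends in bp, with no score. The series' design text gives input as the control, and neither the peak caller nor its threshold is named by the sources used here. All widths were multiples of 20 bp, and read depth is unknown.

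Runs, gaps, overlaps of at least 1 bp and exact Clopper-Pearson 95% intervals were computed with Python 3.11.15, pandas 2.3.3, numpy 2.4.6 and scipy 1.17.1, after the steps had been tested on simulated data. Plots were drawn with matplotlib 3.10.9. Runs named in the text are the 10 with most Nutlin-3 peaks, ties going to the shorter span, and the first by span, by peaks of each other list, by share of span covered and by smallest median gap, with those at known genes; 2 of these runs are not reported here. The members and lists were chosen with earlier results of these data known. Gene places were written from general knowledge after run positions had been seen. Promoters come from RefSeq GRCh38.p14, and no position was converted between builds.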

Additional observations from a re-analysis of the deposited data

How the results depend on the processing

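Of 103 values under alternative settings, 60 stayed close to the reported value and 43 did not; none has a test. Close means inside the 95% interval for a share, and within 1.5 times for a number of runs or a median. With a largest gap of 10 kb there were 184 runs with 6.27% of the peaks, a median span of 12.04 kb, a median gap of 1.03 kb and 17.1% of their peaks overlapped by DMSO. With 50 kb there were 594 runs with 23.1% of the peaks, a median span of 65.3 kb and a median gap of 5.02 kb, and doxorubicin overlapped 10.5% and DMSO 12.6% of their peaks. Requiring at least 4 peaks gave 571 runs with 16.7% of the peaks, of which 54.6% held doxorubicin, 57.1% DMSO and 4.20% untreated peaks; at least 6 gave 171 runs with 7.21%. Merging peaks within 500 bp gave 157 runs with 6.005% of the sites, a median gap of 4.28 kb and doxorubicin in 56.1%, and DMSO overlapped 12.7% of the sites, a value added after seeing the data. The widest 50% of the list gave 49 runs with 3.28% of its peaks and a median gap of 3.54 kb.

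Where a peak of the other list had to overlap a Nutlin-3 peak, 56.2% of runs held doxorubicin, 58.3% DMSO and 2.07% untreated peaks. With an overlap of 50% of both peaks these were 34.1%, 43.8% and 0.345%, and with at least 2 peaks in the span 21.03%, 32.4% and 1.38%. Of the peaks in runs, doxorubicin met 6.04%, DMSO 8.82% and untreated peaks 0.0525% when 50% of both had to overlap. Within 1000 bp the shares were 30.03%, 31.9% and 1.73%, and with midpoints within 200 bp doxorubicin had 14.4% and DMSO 17.7%. These moves follow from the stricter or looser definitions. The lists hold no depth or score, which limits how far an absent peak can be read. No paired analysis was possible because each condition had 1 library, and for the same reason no library could be left out.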
